A study of Mus musculus with 16 samples.

Results

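The 60 genes described here were those with the highest reads in sensory neurons of trigeminal ganglion (TG) relative to every library of the other ganglia, out of 22609 gene symbols counted. Counts were scaled to counts per 1000000 reads on genes (CPM). A gene was ranked by its lowest CPM among the 4 TG libraries plus 1, divided by its highest CPM among the 12 libraries of the nodose/jugular ganglion complex (NG/JG), the T10-L1 dorsal root ganglia (DRG) and the L3–L5 DRG plus 1. The 60 highest scores were taken from 22314 genes. Before that, 8 named genes had been left out: *Prl*, *Gh*, *Pomc*, *Ptgds*, *Hapln2*, *Klk6*, *Mog* and *Mobp*. The symbols of ribosomal proteins, respiratory chain subunits and potassium channels had been left out as well. The members were therefore chosen on their difference between TG and the other ganglia, and the size of that difference is given as a description. Counts of calls for it are printed below, also under other settings, with nothing read from them.

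All 16 libraries, 4 per ganglion, came from naive male C57BL/6J mice, 8 to 12 weeks old, of the genotype Pirt cre/-/Rosa26 LSL-tdTomato/+. In these mice Cre recombinase from the locus of *Pirt*, a membrane protein of sensory neurons, switches on the red fluorescent protein TdTomato, and no group lacked the alleles or received a treatment. Whole left and right ganglia were dissociated and TdTomato-bright cells were sorted in 2 cycles, so each library is a population of cells and holds whatever else passed the gate. Neither the number of mice per library nor whether these libraries came from separate sorts is given in the sources used here, so the spread between libraries may be technical in part. In bulk samples of this kind, more cells of a type and more RNA per cell cannot be told apart.

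TG holds the cell bodies of the neurons that sense touch, temperature and pain in the face, mouth, teeth and meninges. NG/JG neurons serve the heart, lung and gut through the vagus nerve, and DRG neurons serve the trunk, limbs and viscera. Ganglion neurons are wrapped by satellite glia, their axons are myelinated by Schwann cells, and the root where the trigeminal nerve enters the brainstem also holds oligodendrocytes and meninges.

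Reads on genes ranged from 4735624 to 13333318 per library, and 3 counts, taken as the floor of detection, were 0.225 to 0.633 CPM. Floors and counting intervals cover counting error only, because the reads carried no molecular identifiers. The sensory neuron list of 10 genes summed to 788 to 3163 CPM in TG, 1760 to 3867 in T10-L1 DRG, 1082 to 3868 in NG/JG and 969 to 11251 in L3–L5 DRG, and none of its genes was at 0 throughout. Markers of other cells were present in every ganglion as well: the oligodendrocyte list of 25 genes summed to 19483 to 54721 CPM in TG and 5916 to 33847 CPM elsewhere, and the meningeal fibroblast list of 21 genes to 5498 to 9020 and 637 to 11253 CPM. The pituitary list of 18 genes summed to 71.7 to 9507 CPM in TG against at most 32.5 CPM elsewhere. Although the animals are given as male, every library had 1279 to 8362 reads on *Xist*, the RNA of the inactive X chromosome, while the 13 counted genes of the Y chromosome had 0 reads in all. TG library 1 stood apart from TG libraries 2 to 4, and pooled ratios, ratios of means and calls are given below also without it.

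The data went against calling these genes restricted to trigeminal neurons. In 5 of the 60, *Cd3g*, *1700028J19Rik*, *Cyp2f2*, *Slc22a6* and *Lat*, all 12 libraries of the other ganglia were under 2 CPM. The other 55 were expressed outside TG as well: 52 of the 60 had a library above 10 CPM there, and in 37 all 12 were above 1 CPM. In 54 of the 60, the lowest TG library was less than 2 times the highest other library, and the median of this ratio was 1.43. The lowest TG value was that of TG library 1 in 40 members. Without TG library 1, 11 of the 60 stayed among the 60 highest scores, and *Cd3g* was the 1 of the 5 genes among these 11. The genes are therefore called trigeminal-highest below. None of the 10 sensory neuron markers and none of the 9 markers of large-fibre sensory neurons was a member. Of 20 lists of cell type and pathway genes, 3 held a member: meningeal fibroblast (*Slc22a6*), epithelium (*Cyp2f2*) and erythroid cell (*Alas2*).

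**Figure D1:**
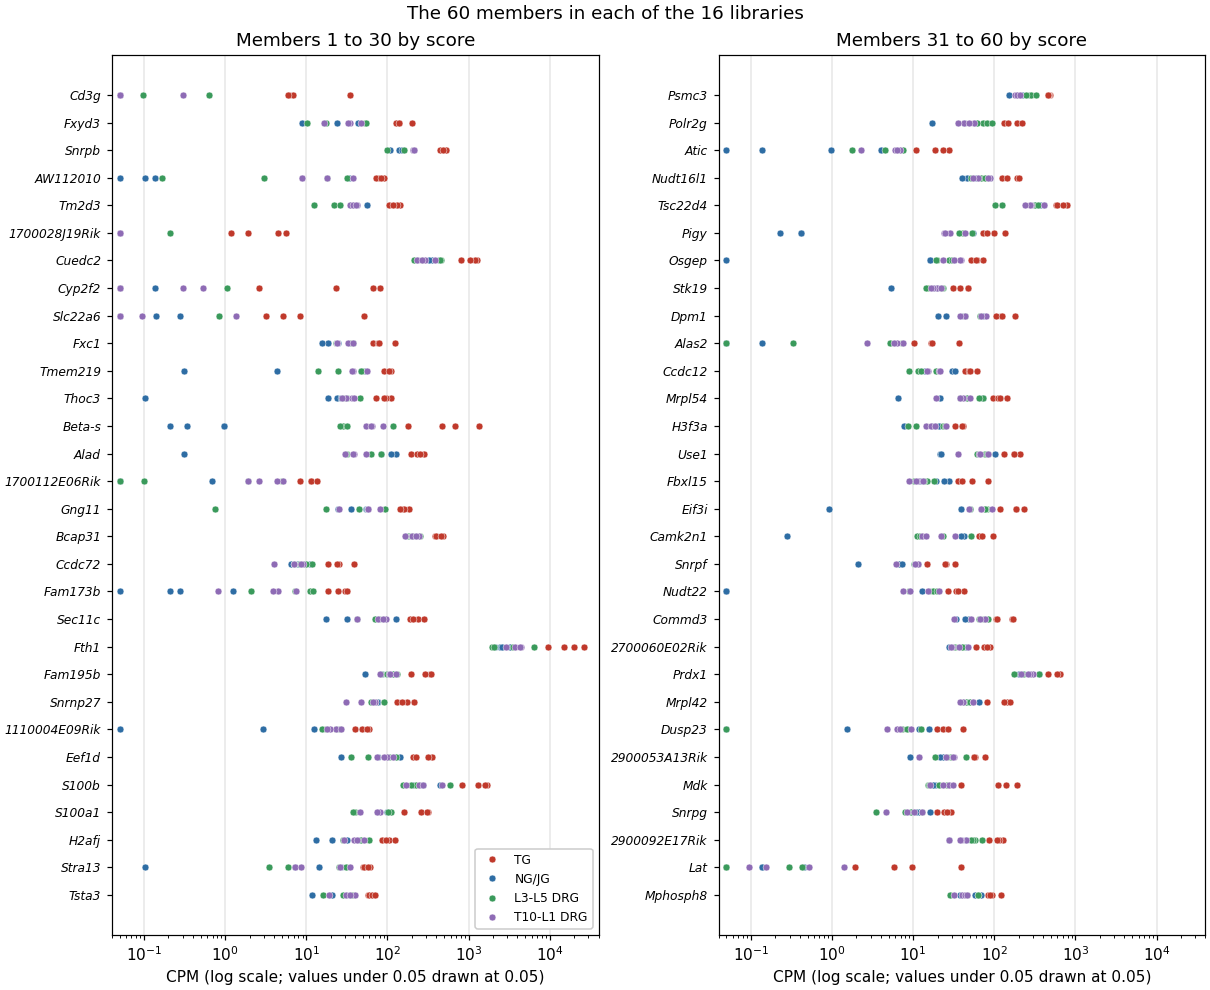
CPM of each of the 60 members (rows, in order of score) in the 16 libraries (points, coloured by ganglion) on a log axis, with values under 0.05 CPM drawn at 0.05. TG points lie to the right of all others in every row by construction; only *Cd3g*, *1700028J19Rik*, *Cyp2f2*, *Slc22a6* and *Lat* have all 12 other libraries under 2 CPM.

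The member with the highest score was *Cd3g*, the gamma chain of the CD3 complex through which the T cell receptor signals. *Cd3g* was at 34.4, 6.10, 6.87 and 5.97 CPM in TG libraries 1 to 4 and at 0 in every NG/JG library, 0.306, 0, 0 and 0 in T10-L1 DRG and 0.0973, 0, 0 and 0.633 in L3–L5 DRG. TG library 1 was far above the other TG libraries, and these lay within 1 CPM of each other.

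*Lat*, an adaptor that links the T cell receptor to downstream kinases, was at 39.4, 9.64, 5.84 and 1.93 CPM in TG, 0.139, 0.455, 0.138 and 0 in NG/JG, 0.153, 0.0952, 1.40 and 0.525 in T10-L1 DRG and 0.292, 0, 0 and 0.422 in L3–L5 DRG. Its highest TG value was again that of TG library 1, and its TG library 4 was close to the highest T10-L1 DRG library. In pooled reads, *Cd3g* had 376 in TG and 6 in the 12 other libraries, and *Lat* had 404 and 37. *Cd3g* was at least 168-fold higher in pooled TG reads than in NG/JG, where no read was found and the floor of 3 counts over the group was used. TG library 1 held most of these reads: without it, *Cd3g* had 105 reads in TG and was at least 69.3-fold higher than in NG/JG, and *Lat* had 94 reads in TG.

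Of 10 other T cell genes, listed after *Cd3g* and *Lat* had been seen, 0 had all 4 TG libraries above the 12 others. *Cd3d* was at 0 except for 1.93 CPM in TG library 4, *Cd3e* was at 0 in all 4 TG libraries, and *Cd8a* was at 0 in TG libraries 1 and 4. Summed, the 10 genes were at 1.02 to 20.3 CPM in TG, 0 to 9.92 in NG/JG, and among the DRG 7.79 to 33.4 at T10-L1 and 12.9 to 48.4 at L3–L5. TG library 1, with the most *Cd3g* and *Lat*, had the lowest of the TG sums. The part of T cells in the *Cd3g* and *Lat* values was not tested.

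*Cyp2f2*, a cytochrome P450 known from airway and olfactory epithelium, was at 79.7, 23.2, 66.5 and 2.63 CPM in TG libraries 1 to 4 and at 0, 0, 0.138 and 0 in NG/JG, 0.306, 0, 0 and 0.525 in T10-L1 DRG and 0, 0, 0 and 1.06 in L3–L5 DRG. Its TG values spanned a 30.3-fold range, with TG library 4 the lowest. In pooled reads it had 1148 in TG and 15 in the 12 others, a ratio of pooled CPM of 352 (exact 95% counting interval 213 to 632). Without TG library 1 it had 520 reads in TG and a ratio of 235 (141 to 424). It was the member of a list of 15 epithelial genes, which summed to 99.4 to 387 CPM in TG and 4.44 to 387 CPM elsewhere. Outside TG, *Cdh1* was the most abundant of them in every library, at 4.44 to 371 CPM, and it was at 64.6 to 243 CPM in TG. Of that list, no other gene had its TG libraries above all others. *Krt18*, *Krt8* and *Epcam* were at 0 in TG library 4 but reached 57.8, 11.3 and 17.5 CPM in other TG libraries. Elsewhere they were at most 1.27, 0.845 and 0.917 CPM. *Krt5*, *Krt14*, *Krt15*, *Cyp2a5* and *Cyp2g1* were at 0 in all TG libraries. These genes were named after their values had been seen.

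*Slc22a6*, the organic anion transporter of kidney tubule that leptomeningeal cells also carry, was at 50.8, 8.26, 5.15 and 3.16 CPM in TG and at 0.139, 0, 0.276 and 0 in NG/JG, 1.38, 0.0952, 0 and 0 in T10-L1 DRG and 0, 0, 0 and 0.845 in L3–L5 DRG. TG library 1 was above the other 3, as for *Cd3g* and *Lat*, and held most of its reads: the ratio of pooled CPM to the 12 other libraries was 133 with it and 35.9 without. Of the 21 meningeal fibroblast genes, the GABA transporter *Slc6a13* also had its TG libraries above all others, at 33.3, 107, 31.6 and 17.03 CPM in TG and 0.278, 0, 0 and 0 in NG/JG, 9.32, 2.76, 5.34 and 12.2 in T10-L1 DRG and 9.63, 5.86, 0 and 13.9 in L3–L5 DRG; it ranked 62 and was not a member. The part of meningeal cells in these values was not tested.

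*1700028J19Rik*, a protein-coding gene without an assigned function, was at 5.58, 1.18, 4.47 and 1.93 CPM in TG and at 0 in every other library except L3–L5 DRG library 4, at 0.211 CPM. This was 87 reads in TG and 1 read elsewhere. The ratio of pooled CPM to L3–L5 DRG had an exact 95% counting interval of 23.1 to 5286, so its size is poorly known. Without TG library 1 it was 16.4 to 3897. L3–L5 DRG library 4 had the highest CPM of its group for all 5 of these genes. It was the shallowest library, at 4735624 reads on genes, and for *Lat* another L3–L5 DRG library held more reads. It also stood apart otherwise: 66.6% of its unique reads lay outside genes, with the next highest, T10-L1 DRG library 1, at 51.5%. Its 3.72 reads without a unique alignment per read on genes and its 18571 genes with a read were the highest of all libraries.

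**Figure D2:**
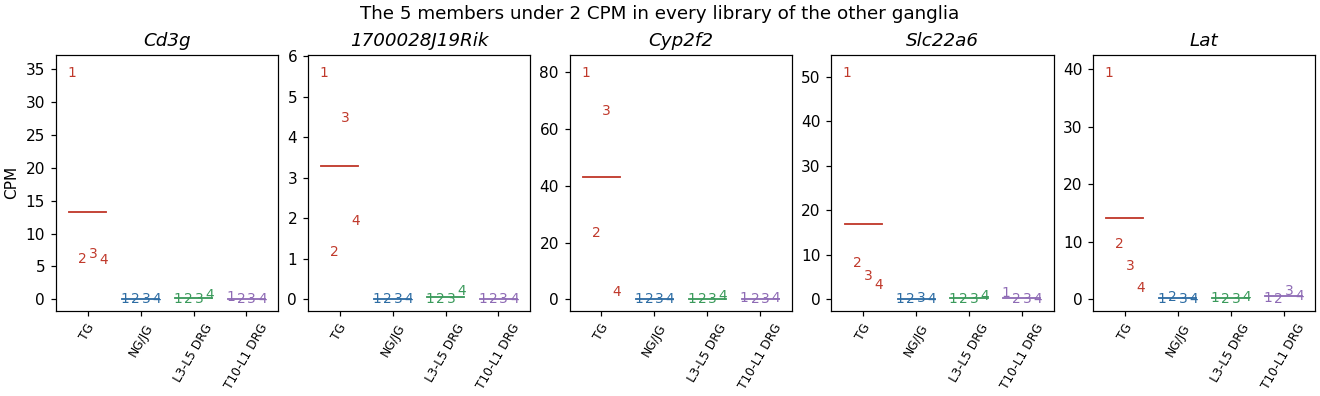
CPM of the 5 members under 2 CPM in every library of the other ganglia, 1 panel per gene with its own linear axis; numerals are the libraries of each ganglion and lines are group means. TG library 1 is the highest TG value in all 5, and TG library 4 is close to the other ganglia for *Cyp2f2*, *Slc22a6* and *Lat*.

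A feature that the rule did not use is the CpG content of the promoter, and it is given here as a description of the members. RefSeq windows from 250 bases before to 50 after the gene start (GRCm38.p6) were found for 43 of the 60 members. CpG-rich windows are typical of genes that most cells use, and CpG-poor ones of genes with a narrow range of tissues. The ratio of observed to expected CpG was 0 to 0.31 in the 5 genes, and none was above 0.6. It was above 0.6 in 26 of 38 other members, which had a median of 0.737, close to the 0.749 of 11205 genes above 1 CPM on average; 69.2% of those genes were above 0.6. The ranges overlapped: among the other members, *AW112010*, *Beta-s* and *S100b* had ratios of 0.083, 0.109 and 0.145. As examples, 4 windows are shown, each 300 bases from 5′ to 3′ on the gene's strand with every CG in capitals. Those of *Fxc1* and *Snrpg*, at 0.904 and 1.056, lie above the median of the other members. *Cd3g* and *Cyp2f2* are nearly TG-only and hold 4 and 0 CG, whereas *Fxc1* (*Timm10b*) and *Snrpg* are expressed in all 4 ganglia and hold 25 and 26.
Cd3g (chr9:44980382-44980681, minus strand): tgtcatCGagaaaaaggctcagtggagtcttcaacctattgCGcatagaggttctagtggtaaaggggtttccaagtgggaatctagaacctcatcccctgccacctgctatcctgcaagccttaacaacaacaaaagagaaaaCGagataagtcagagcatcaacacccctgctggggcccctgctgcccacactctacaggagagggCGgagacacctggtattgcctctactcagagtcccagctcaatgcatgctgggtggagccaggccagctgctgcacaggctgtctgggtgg
Cyp2f2 (chr7:27119705-27120004, plus strand): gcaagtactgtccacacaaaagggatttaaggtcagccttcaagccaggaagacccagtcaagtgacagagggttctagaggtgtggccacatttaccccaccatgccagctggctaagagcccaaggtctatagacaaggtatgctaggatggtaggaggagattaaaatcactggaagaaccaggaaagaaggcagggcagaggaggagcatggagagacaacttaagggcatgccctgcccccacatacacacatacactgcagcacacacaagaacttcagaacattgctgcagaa
Fxc1 (chr7:105640195-105640494, plus strand): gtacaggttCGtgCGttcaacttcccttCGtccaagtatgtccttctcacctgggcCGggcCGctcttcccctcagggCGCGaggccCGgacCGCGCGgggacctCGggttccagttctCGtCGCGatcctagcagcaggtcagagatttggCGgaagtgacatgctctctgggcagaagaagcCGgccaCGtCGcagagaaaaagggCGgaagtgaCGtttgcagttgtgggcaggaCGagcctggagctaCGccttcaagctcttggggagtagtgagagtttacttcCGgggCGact
Snrpg (chr6:86371290-86371589, plus strand): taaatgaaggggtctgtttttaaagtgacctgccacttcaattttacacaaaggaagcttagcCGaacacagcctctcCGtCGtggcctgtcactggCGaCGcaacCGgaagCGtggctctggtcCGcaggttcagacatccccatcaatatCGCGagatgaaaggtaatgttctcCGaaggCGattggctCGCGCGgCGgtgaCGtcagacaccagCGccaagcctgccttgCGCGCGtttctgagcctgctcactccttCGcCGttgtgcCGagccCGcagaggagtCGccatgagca

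Members of globin, haem and iron handling were the next most uneven group. *Beta-s* (*Hbb-bs*), the adult beta-globin of C57BL/6J, was at 181, 1356, 679.5 and 464 CPM in TG libraries 1 to 4. Elsewhere it was at 0.974, 0.341, 0.968 and 0.207 in NG/JG, 64.3, 54.1, 88.7 and 62.8 in T10-L1 DRG and 116, 28.1, 26.1 and 31.9 in L3–L5 DRG. It was under 1 CPM in all 4 NG/JG libraries and well above that in all 8 DRG libraries, with no overlap between NG/JG and either DRG. Its near-identical beta-globin copies were listed at 0 in every library, so which copy its reads came from cannot be told apart.

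*Alas2*, the erythroid form of the first enzyme of haem synthesis, was at 10.2, 36.4, 16.8 and 17.2 CPM in TG, 0, 0, 0.138 and 0 in NG/JG, 7.49, 2.67, 6.33 and 5.85 in T10-L1 DRG and 5.25, 0, 0.33 and 7.39 in L3–L5 DRG. Like *Beta-s*, it was lowest in NG/JG. *Alad*, the next enzyme of the pathway and expressed in most cells, was at 197, 280.5, 234 and 250.2 CPM in TG and 129, 111, 84.2 and 0.31 in NG/JG, 53.8, 30.1, 38.2 and 37.7 in T10-L1 DRG and 62.8, 31.9, 31.1 and 82.99 in L3–L5 DRG. Here NG/JG libraries 1 to 3 were above all 8 DRG libraries, and NG/JG library 4 was near 0. Beside *Alas2*, the erythroid list held *Slc4a1*, the red cell anion exchanger, at 0 in 3 of 4 TG libraries, and 4 globin genes listed at 0 in all 16. *Beta-s* was not on this list. How reads shared between globin copies were counted is not given, so the zeros of these globin genes cannot be read as absence.

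*Fth1*, the heavy chain of the iron store ferritin, was the most abundant member per length, at 20440 ± 8434 RPKM in TG (CPM per kilobase of exon; SD, n = 4) against 2976 ± 530.4 in NG/JG, 4399 ± 781 in T10-L1 DRG and 4023 ± 2372 in L3–L5 DRG. In CPM it was at 9410, 26692, 15091 and 19612 in TG and 1964 to 6373 elsewhere. It has many processed copies in the genome, and its count depends on how reads shared with them were treated. The 60 members together took 17718 to 39210 CPM in TG and 4841 to 10778 CPM elsewhere; without *Fth1* these sums were 8309 to 12518 and 2772 to 4405 CPM.

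A group of 7 members codes for calcium-binding, glial and membrane signalling proteins. *Fxyd3*, a small regulator of the sodium pump, had the second highest score, at 138, 203, 127 and 137 CPM in TG and 43.3, 8.88, 23.9 and 16.9 in NG/JG, 47.4, 34.5, 16.4 and 32.2 in T10-L1 DRG and 52.6, 17.4, 10.1 and 54.1 in L3–L5 DRG. Its annotated exons overlap those of *Lgi4*, a Schwann cell gene on the other strand, over 43.2% of their length, and without the strand setting reads of the pair cannot be told apart.

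*Gng11*, a gamma subunit of G proteins, was at 149, 185, 161 and 141 CPM in TG and 54.7, 55.3, 24.5 and 35.04 in NG/JG, 79.8, 57.8, 25.6 and 57.1 in T10-L1 DRG and 44.3, 17.4, 0.742 and 93.1 in L3–L5 DRG, where L3–L5 DRG library 3 was near the floor and library 4 the highest. *S100b*, a calcium-binding protein of Schwann cells and satellite glia, was at 839 to 1690 CPM in TG and 156 to 582 CPM in the other 12 libraries. *S100a1*, its relative, was at 161 to 316 CPM in TG and 37.3 to 111 CPM in the other 12 libraries. *Mdk*, the heparin-binding growth factor midkine, was at 38.5, 193, 139 and 111 CPM in TG and 15.4 to 30.9 elsewhere, so TG libraries 2 to 4 were far above TG library 1. *Tsc22d4*, a leucine zipper protein of the TSC22 family, was at 570.2 to 778 CPM in TG and 103 to 414 CPM in the other 12 libraries, and *Camk2n1*, an inhibitor of CaM kinase II, at 65.5 to 97.8 CPM in TG and 0.276 to 51.3 CPM in the other 12 libraries. Neither the 9 counted genes of the Schwann cell list nor the 6 of the satellite glia list had one with TG above all others. These lists summed to 9931 to 23386 and 2629 to 3963 CPM in TG against 5835 to 28336 and 1544 to 5879 CPM elsewhere. Of the 25 oligodendrocyte genes, 2 had TG above all others, *Hapln2* and *Klk6*, which the rule had left out. The part of these 3 kinds of glia in the *S100b* values was not tested.

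RNA processing gave 7 members, 3 of them proteins of the Sm ring around which spliceosomal snRNPs are built. *Snrpb*, which codes for SmB, was at 443, 522, 529 and 482 CPM in TG and 204, 137, 106 and 149 in NG/JG, 208, 213, 208 and 211 in T10-L1 DRG and 209, 98.5, 162 and 205 in L3–L5 DRG. The 4 T10-L1 DRG libraries were very close to each other. *Thoc3*, a subunit of the THO complex of mRNA export, was at 110.2, 96.4, 89.9 and 72.3 CPM in TG and 24.1, 26.7, 18.7 and 0.103 in NG/JG, 36.2, 38.5, 30.4 and 27.5 in T10-L1 DRG and 31.03, 45.4, 31.6 and 28.1 in L3–L5 DRG, and was nearly absent from NG/JG library 4 alone. The other Sm genes, *Snrpf* and *Snrpg*, were at 14.8 to 33.2 CPM in TG and 2.09 to 11.5 CPM in the other 12 libraries, and at 19.8 to 29.2 CPM in TG and 3.46 to 15.9 CPM in the other 12 libraries. *Snrnp27*, a protein of the tri-snRNP, was at 130.2 to 212 CPM in TG and 31.2 to 89.3 CPM in the other 12 libraries. *Ccdc12*, found in spliceosome preparations, was at 43.2 to 60.8 CPM in TG and 8.93 to 32.7 CPM in the other 12 libraries, and *2700060E02Rik* (*Rtraf*), of the tRNA ligase complex, at 60 to 88.7 CPM in TG and 27.8 to 47.4 CPM in the other 12 libraries. *Snrpf* shares 85.4% of its exon length with genes on the other strand.

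Among 6 translation members, *Ccdc72* (*Tma7*), a protein associated with ribosomes, was at 18.3, 38.6, 25.1 and 23.7 CPM in TG and 6.54, 11.04, 9.26 and 7.96 in NG/JG, 3.97, 9.14, 7.07 and 8.55 in T10-L1 DRG and 11.9, 8.44, 9.80 and 6.97 in L3–L5 DRG. The others were *Eef1d*, of elongation factor 1 (206 to 356 CPM in TG and 26.98 to 142 CPM in the other 12 libraries), *Eif3i*, of initiation factor 3 (118 to 235 CPM in TG and 0.93 to 92.7 CPM in the other 12 libraries), *Osgep*, of the complex that modifies tRNA (52.3 to 72.8 CPM in TG and 0 to 38.7 CPM in the other 12 libraries), and the mitochondrial ribosome proteins *Mrpl54* (95.6 to 145 CPM in TG and 6.54 to 72.95 CPM in the other 12 libraries) and *Mrpl42* (81.6 to 155 CPM in TG and 37.8 to 64.7 CPM in the other 12 libraries). Cytosolic ribosomal proteins could not be members, because the rule leaves out their symbols.

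Of 3 mitochondrial members, *Fxc1* (*Timm10b*), a chaperone of the inner membrane import route, was at 66.01, 77.3, 78.2 and 123 CPM in TG and 24.2, 37.1, 18.5 and 15.4 in NG/JG, 24, 32.9, 24 and 37.4 in T10-L1 DRG and 35.02, 35.1, 37.7 and 23.02 in L3–L5 DRG. *Fam173b* (*Atpsckmt*), the methyltransferase of ATP synthase subunit c, was at 30.3, 24.6, 18.6 and 31.3 CPM in TG and 0.278, 1.25, 0 and 0.207 in NG/JG, 4.43, 3.90, 0.822 and 7.42 in T10-L1 DRG and 11.1, 12.1, 2.06 and 7.18 in L3–L5 DRG. It was at or below 1.25 CPM in all 4 NG/JG libraries. *2900053A13Rik* (*Pet100*), an assembly factor of cytochrome oxidase, was at 55.7 to 76.3 CPM in TG and 9.10 to 44.6 CPM in the other 12 libraries and shares 73.8% of its exon length with *Pcp2*, on the other strand. Exons of *Fxc1* overlap *Arfip2* and *Dnhd1* over 31.3% of their length.

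The secretory pathway gave 6 members. *Bcap31*, which helps proteins out of the endoplasmic reticulum, was at 382, 395, 482 and 453 CPM in TG and 209, 171, 187 and 207 in NG/JG, 198, 245, 166 and 226 in T10-L1 DRG and 254, 182, 193 and 198 in L3–L5 DRG. *Sec11c*, a catalytic subunit of signal peptidase, was at 189, 234, 282 and 209 CPM in TG and 127, 17.5, 72.8 and 32.04 in NG/JG, 75.7, 96.6, 42.2 and 89.1 in T10-L1 DRG and 79.7, 70.1, 42.4 and 91.9 in L3–L5 DRG. *Tsta3* (*Gfus*), which makes GDP-fucose, was at 57.4 to 69.2 CPM in TG and 11.6 to 40.3 CPM in the other 12 libraries. *Pigy*, of the first step of GPI anchor synthesis, was at 73.2 to 134 CPM in TG and 0.228 to 53.95 CPM in the other 12 libraries, with NG/JG libraries 1 to 3 near the floor and library 4 at 54.0. *Dpm1*, the dolichol-phosphate mannose synthase, was at 106 to 179.9 CPM in TG and 20.2 to 79.6 CPM in the other 12 libraries, and *Use1*, a SNARE of the endoplasmic reticulum, at 131 to 207 CPM in TG and 21.7 to 101 CPM in the other 12 libraries. *Dpm1* shares 38.4% of its exon length with *Adnp* and *Mocs3*.

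Protein turnover, redox and nucleotide metabolism gave 9 members. *Cuedc2*, a ubiquitin-binding protein, was at 801, 1250, 1198 and 1040 CPM in TG and 349, 432, 231 and 321 in NG/JG, 293, 386, 229 and 264 in T10-L1 DRG and 452, 264, 215 and 448 in L3–L5 DRG. Its neighbour *Fbxl15*, an F-box subunit of ubiquitin ligases, was at 35.6 to 84.8 CPM in TG and 9 to 27.5 CPM in the other 12 libraries; the pair overlaps on chromosome 19 (mm9, chr19:46404302-46413150, minus strand, and chr19:46402674-46404936, plus strand). *Psmc3*, an ATPase of the proteasome, was at 457 to 482 CPM in TG and 151 to 323 CPM in the other 12 libraries, and *Prdx1*, a peroxidase of the cytosol, at 454 to 654 CPM in TG and 177 to 361 CPM in the other 12 libraries. *Atic*, of the last steps of purine synthesis, was at 10.9 to 27.6 CPM in TG and 0 to 7.58 CPM in the other 12 libraries. *Commd3*, of the COMMD family, was at 105 to 168 CPM in TG and 31.5 to 82.7 CPM in the other 12 libraries, the nudix genes *Nudt16l1* and *Nudt22* were at 123 to 202 CPM in TG and 40.2 to 88.9 CPM in the other 12 libraries, and at 26.5 to 42.3 CPM in TG and 0 to 20.8 CPM in the other 12 libraries, and the phosphatase gene *Dusp23* was at 19.8 to 40.9 CPM in TG and 0 to 15.7 CPM in the other 12 libraries.

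Chromatin and transcription gave 5 members. *Polr2g*, a subunit of RNA polymerase II, was at 133 to 220.4 CPM in TG and 16.9 to 95.02 CPM in the other 12 libraries, the histone genes *H2afj* and *H3f3a* were at 85.9 to 124 CPM in TG and 13.02 to 59.6 CPM in the other 12 libraries, and at 32.9 to 41.5 CPM in TG and 7.74 to 25.1 CPM in the other 12 libraries. *2900092E17Rik* (*Pagr1a*), of a histone methyltransferase complex, was at 85.7, 127, 114 and 108 CPM in TG and 38.4, 44.7, 27.4 and 55.8 in NG/JG, 44.9, 39.3, 28.03 and 37.9 in T10-L1 DRG and 69.6, 57.2, 55.4 and 51.5 in L3–L5 DRG. *Mphosph8*, which reads methylated histone H3, was at 82.9, 94.04, 121 and 87.5 CPM in TG and 37.98, 58.5, 45.3 and 67.8 in NG/JG, 40.5, 43.5, 46.4 and 31.8 in T10-L1 DRG and 28.1, 62.3, 46.7 and 62.7 in L3–L5 DRG. *2900092E17Rik* shares 75.8% of its exon length with genes on the same strand, among them *Mvp* and *Prrt2*, and *H3f3a* and *Prdx1* have processed copies, so these counts are uncertain.

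The remaining 9 members, *1700028J19Rik* among them, have other or unassigned roles. *AW112010*, an interferon-inducible transcript of immune cells, was at 78.7, 72, 91.6 and 84.3 CPM in TG and 33.5, 0, 0.138 and 0.103 in NG/JG, 17.7, 8.85, 8.96 and 37.3 in T10-L1 DRG and 31.6, 2.98, 0.165 and 17.9 in L3–L5 DRG. NG/JG libraries 2 to 4 and L3–L5 DRG library 3 were under the floor, while NG/JG library 1 was among the highest outside TG. *Tm2d3*, a membrane protein of the TM2 family, was at 104, 141, 132 and 117 CPM in TG and 38.7, 56.7, 42.6 and 35.7 in NG/JG, 34.4, 42.6, 37.3 and 40.95 in T10-L1 DRG and 35.6, 21.8, 25.6 and 12.5 in L3–L5 DRG. *Tmem219*, a receptor of IGFBP3, was at 105, 91.1, 111 and 105 CPM in TG and 47.02, 4.32, 52.7 and 0.31 in NG/JG, 37.5, 37.4, 36.7 and 55.4 in T10-L1 DRG and 48.3, 13.8, 24.2 and 47.7 in L3–L5 DRG, with NG/JG libraries 2 and 4 far below libraries 1 and 3. *1700112E06Rik* (*Lrmda*), a gene of melanocyte differentiation, was at 11.3, 11.4, 8.42 and 13.7 CPM in TG and 0.696, 0, 0 and 0 in NG/JG, 5.20, 1.90, 4.36 and 2.62 in T10-L1 DRG and 5.06, 0.0993, 0 and 1.90 in L3–L5 DRG. It was nearly absent from NG/JG and from L3–L5 DRG libraries 2 and 3. *Fam195b* (*Mcrip1*) was at 194 to 347 CPM in TG and 53.3 to 133 CPM in the other 12 libraries, *1110004E09Rik* (*Cfap298*) at 39.6 to 59.96 CPM in TG and 0 to 26.96 CPM in the other 12 libraries, *Stra13* at 49.6 to 60.99 CPM in TG and 0.103 to 34.6 CPM in the other 12 libraries, and *Stk19* at 31.4 to 47.1 CPM in TG and 5.35 to 23.2 CPM in the other 12 libraries.

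Across the 55 members that were expressed elsewhere, the mean of TG was 1.66 to 9.93 times that of the highest other ganglion, with a median of 2.47. In 6 of them, *Fxyd3*, *AW112010*, *Beta-s*, *Fth1*, *S100b* and *Mdk*, it was over 4 times. Without TG library 1 the range was 1.65 to 12.3 and the median 2.54. The highest value outside TG lay in a DRG library for 46 of the 60 members and in an NG/JG library for 14, and L3–L5 DRG library 4 gave it most often, for 11. Levels in TG spanned 2.64 RPKM for *1700028J19Rik* to 20440 RPKM for *Fth1*, with a median of 47.5 RPKM over the 59 members with a length. At the edge of the choice, the last genes inside had scores of 1.23 for *2900092E17Rik*, 1.22 for *Lat* and 1.22 for *Mphosph8*, and the first outside had 1.21 for *Mrpl19*, 1.21 for *Slc6a13* and 1.21 for *Serf1*. *Mrpl19*, of the mitochondrial ribosome, was at 37.8, 45.8, 59.1 and 36.7 CPM in TG and 22.7, 19.7, 17.97 and 0 in NG/JG, 16.97, 18.9, 19.1 and 22.3 in T10-L1 DRG and 25.5, 30.1, 26.8 and 11.2 in L3–L5 DRG, and *Serf1*, a small protein linked to amyloid aggregation, at 47.9, 57.8, 56.7 and 55.5 and 14.3, 0.228, 22.2 and 37.3 in NG/JG, 24.9, 29.98, 10.5 and 9.90 in T10-L1 DRG and 30.1, 30.4, 39.5 and 17.9 in L3–L5 DRG. The last members and the genes just outside had similar scores.

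In all 22609 genes, 167 (0.739%) had 4 TG libraries above all 12 others and 196 had 4 below. The members are 60 of these 167 by the rule. For each pair of ganglia, reads were compared by edgeR's quasi-likelihood test on the 8 libraries of the pair, with Benjamini-Hochberg adjustment over all genes that passed its filter on low counts. The comparisons of TG with each other ganglion share the TG libraries and the rule's own contrast, so nothing is read from the following counts. Against NG/JG, 2 of the 59 members that passed the filter were called higher in TG at an adjusted p under 0.05, *Beta-s* and *Fth1*, beside 0.034% of 11769 genes. Against L3–L5 DRG, 0 of 59 were called and 0% of 12900 genes, with 57 of 59 beside 10.1% higher at an unadjusted p under 0.05. There DESeq2 called 56 members higher, beside 6.18% of genes. Against T10-L1 DRG, 46 of 59 were called higher, beside 4.33% of 12914 genes. The median log2 fold change of the 59 was 1.96, 1.95 and 1.91, and that of all genes tested -0.05, -0.03 and -0.03. Without TG library 1, the member counts were 15, 49 and 58, among 325, 2038 and 3583 genes called in all. Against T10-L1 DRG, leaving out TG library 2, 3 or 4 or T10-L1 DRG library 1, 2 or 3 called 0 members and 0 or 1 gene, and leaving out T10-L1 DRG library 4 called 17 members among 119 genes. *1700028J19Rik* did not pass the filter in any of the 3.

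The comparisons among the 3 ganglia other than TG were not the rule's own contrast, but they are not free of the rule. It divided by the highest of their 12 libraries, so genes high in 1 of these ganglia were less likely to be members. Few or small differences among the members may thus come in part from the choice. These comparisons ask whether genes that are highest in TG also differ among the ganglia where they are lower. No member passed an adjusted p under 0.05 in any of the 3. Of NG/JG versus L3–L5 DRG, 53 members were tested, 0 were called and 0% of 12240 genes were; at an unadjusted p under 0.05, 2 members were lower in NG/JG, beside 3.68% of genes, and 0 were higher. Of NG/JG versus T10-L1 DRG, 55 were tested and 0 called, beside 0.0322% of 12430 genes; at an unadjusted p under 0.05, 4 members were lower, beside 4.06%. Of L3–L5 DRG versus T10-L1 DRG, 55 were tested, 0 were called and 0% of 13550 genes were, and 1 member was higher in L3–L5 DRG at an unadjusted p under 0.05, beside 3.35%. The members left by the filter are not all members: *Cd3g*, *1700028J19Rik*, *Cyp2f2*, *Slc22a6* and *Lat* had too few reads in all 3, and *1700112E06Rik* and *Alas2* in the first. The median log2 fold change of the members tested was -0.17, -0.23 and -0.03, beside 0.01, 0.02 and 0.03 for all genes.

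*Beta-s* and *Alas2*, both lower in NG/JG, had the largest fitted differences among the members tested. The other enzyme of haem synthesis, *Alad*, was not lower there, at 81.1 ± 56.9 CPM in NG/JG (SD, n = 4), 39.96 ± 9.96 in T10-L1 DRG and 52.2 ± 25.3 in L3–L5 DRG, and was not called. *Beta-s* had a mean of 0.622 ± 0.406 CPM in NG/JG (SD, n = 4), 67.5 ± 14.9 in T10-L1 DRG and 50.5 ± 43.6 in L3–L5 DRG. For NG/JG over L3–L5 DRG, its log2 fold change -6.22 ± 1.22 (SE) and a log2 fold change -6.70 ± 0.94 (SE) over T10-L1 DRG had adjusted p = 0.168 and 0.061 by edgeR's quasi-likelihood test, and DESeq2 called both, at adjusted p = 1.317e-09 and 1.518e-22. *Alas2* had 0.0345 ± 0.0691 CPM in NG/JG and 5.58 ± 2.06 in T10-L1 DRG, log2 fold change -6.90 ± 1.54 (SE), with adjusted p = 0.115 by edgeR and 4.195e-06 by DESeq2. DESeq2 called 2 members lower in NG/JG in each comparison, beside 4.79% of genes against L3–L5 DRG and 4.82% against T10-L1 DRG, so the call depended on the tool. *Fam173b* was lower in NG/JG at an unadjusted p under 0.05 against both DRG, by log2 fold change -4.07 ± 1.56 (SE) and log2 fold change -3.18 ± 1.39 (SE), and DESeq2 called the first at adjusted p = 0.00897. *1700112E06Rik* was at 0.174 ± 0.348 CPM in NG/JG and 3.52 ± 1.52 in T10-L1 DRG, with adjusted p = 0.644 by edgeR. The adjusted p of *Fam173b* was 0.627 and 0.823 by the same test.

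Between the DRG, *Polr2g* was the member with the lowest p, at 41.9, 55.8, 35.8 and 48.4 CPM in T10-L1 DRG and 71.8, 81.1, 60.8 and 95.02 CPM in L3–L5 DRG, without overlap. The difference between the DRG, a log2 fold change 0.72 ± 0.27 (SE), had adjusted p = 0.785 by edgeR, so it did not pass. Among members above 1 CPM on average in the 8 libraries compared, the 2 ganglia did not overlap for 6 of 54 between NG/JG and L3–L5 DRG, beside 7.54% of genes: *Tm2d3* was higher in NG/JG and *Thoc3*, *Beta-s*, *Fam173b*, *Polr2g* and *Snrpf* were lower. They did not overlap for 5 of 55 between NG/JG and T10-L1 DRG, beside 8.84%, with *Snrpb*, *Thoc3*, *Beta-s*, *1700112E06Rik* and *Alas2* all lower in NG/JG. Between the DRG they did not for 3 of 55, beside 3.61%, with *Psmc3*, *Polr2g* and *2900092E17Rik* higher in L3–L5 DRG. These shares are near those of all genes.

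**Figure D3:**
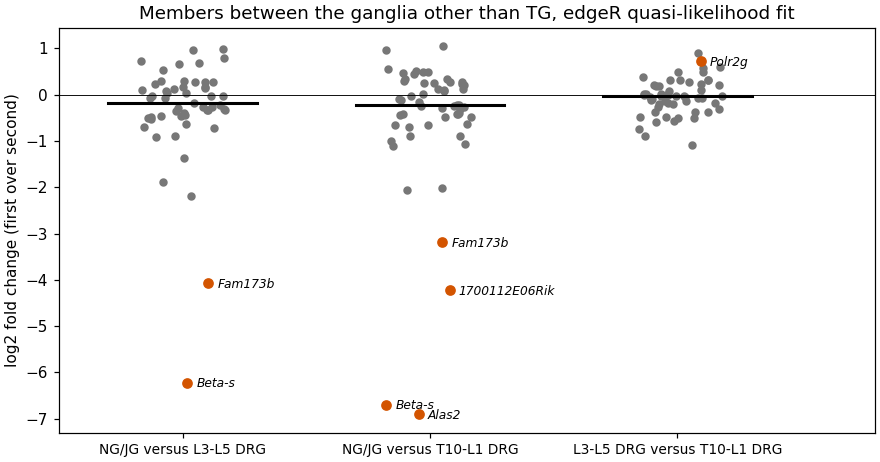
Log2 fold change (vertical axis) of each member that passed the filter, 53, 55 and 55 of 60, in the 3 comparisons without TG, from edgeR's quasi-likelihood fit; black lines are medians and orange points have an unadjusted p under 0.05. Most members lie within 1 of 0, and the low points in the NG/JG comparisons are *Beta-s*, *Alas2*, *1700112E06Rik* and *Fam173b*.

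Members under 1 CPM in single libraries were most frequent in NG/JG. Among the 55 members expressed elsewhere, 17 were under 1 CPM in at least 1 NG/JG library, 5 in an L3–L5 DRG library and 1 in a T10-L1 DRG library. Of the 17, *Beta-s*, *1700112E06Rik* and *Alas2* were under 1 CPM in all 4 NG/JG libraries, and the others in some of them. In NG/JG library 4 alone there were 15, among them *Thoc3*, *Alad*, *Stra13*, *Osgep* and *Atic*. This library lacked many genes: of 11827 genes with a mean above 5 CPM over the 12 libraries, 40.1% were under 1 CPM in it, against 13.03% to 24.6% in the other 3 of NG/JG and 1.40% to 8.39% in the DRG libraries.

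Whether the choice carries over to libraries it did not use was read by repeating it without the 4 libraries of 1 number, 1 per ganglion, and looking at those 4. Of the 60 genes chosen without the libraries numbered 1, TG library 1 was the highest of the 4 for 28, which is 46.7% beside 19.9% of all 18049 genes with a read in them. For number 2 the count was 46, or 76.7% beside 24.9%; for number 3 it was 53, or 88.3% beside 26.4%; and for number 4 it was 42, or 70% beside 19.8%. The chosen genes thus stayed highest in TG more often than genes at large in every round, and least often in TG library 1. Genes at large were not matched for length or level, and TG libraries 2 to 4 shared the pattern with gene length given below. The rounds therefore cannot tell the choice of single genes apart from that pattern. The TG library that was left out was a median of 0.957, 1.98, 2.42 and 1.29 times the highest of the 3 others, after 1 CPM had been added to both. The lists themselves changed: 11, 38, 43 and 27 of the 60 chosen were among the 60 members. The 12 libraries of a round overlap with those of the next, so the rounds are not independent.

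**Figure D4:**
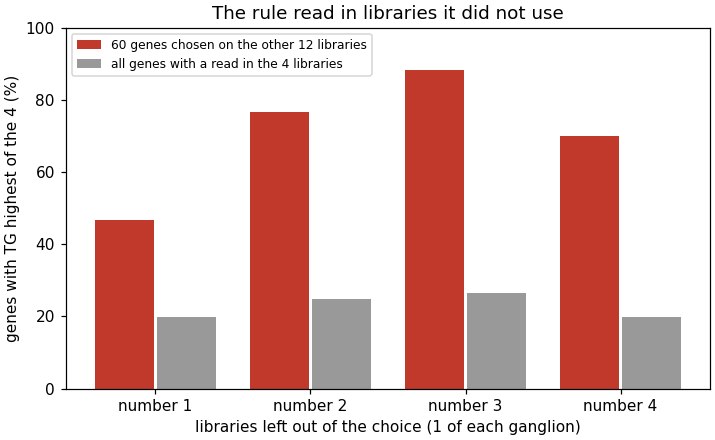
Percent of genes (vertical axis) for which the TG library was the highest of the 4 left-out libraries, for the 60 genes chosen on the other 12 libraries (red) and for all genes with a read (grey), in 4 rounds by library number. Red bars run from 46.7% for number 1 to 88.3% for number 3, and grey bars from 19.8% to 26.4%.

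Another feature that the rule did not use is the length of the gene, and the members were short. Annotated exons came to a median of 1827 bp over the 59 members with a length, from 637 bp for *Ccdc72* to 11882 bp for *Dpm1*, against 3751 bp for 14115 genes above 1 CPM on average. Of the members, 27 (45.8%) were at most 1500 bp long, against 10.4% of those genes, and 11 (18.6%) were above 4000 bp, against 45.9%. The same was seen in genes with 4 TG libraries above the 12 others: they were 7.46% of genes up to 1000 bp, 4.39% of those above that and up to 1500 bp, and 0.161% above 6000 bp. Genes with TG below all others went the opposite way, from 0.187% to 1.80%.

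This moved with single libraries. Each gene's log2(CPM + 1) was taken relative to its mean over the 16 libraries, and the median of 6477 genes above 4000 bp was subtracted from that of 1470 genes up to 1500 bp. The difference was 1.40, 1.46 and 1.21 in TG libraries 2 to 4 and -0.14 in TG library 1. In the other 12 libraries it ran from -0.71 in T10-L1 DRG library 3 to 0.38 in NG/JG library 4. Short genes as a whole were thus higher in 3 of the 4 TG libraries. The part of transcript length in the members' values was not tested.

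**Figure D5:**
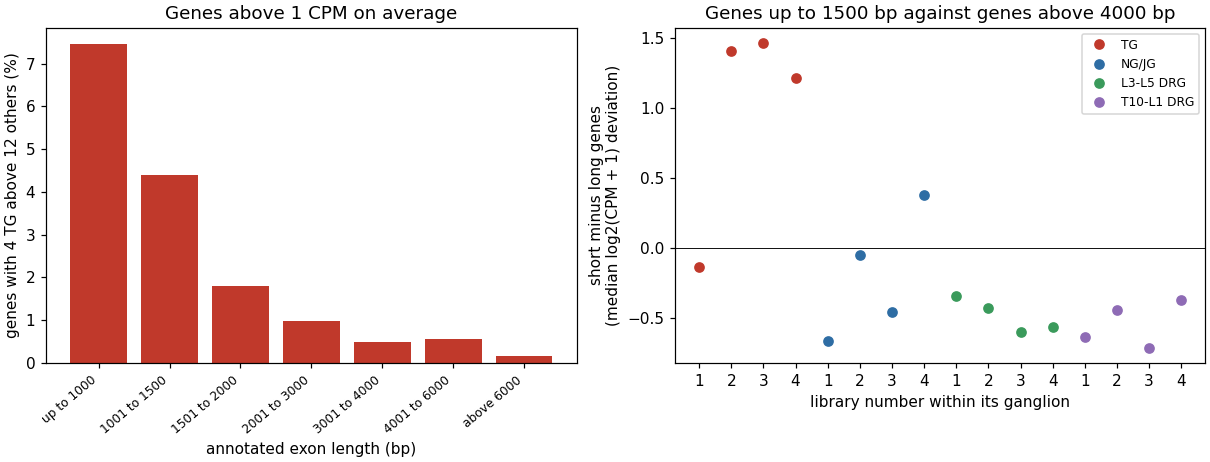
Left, percent of genes above 1 CPM on average whose 4 TG libraries lay above the 12 others (vertical axis), by annotated exon length in bp. Right, median log2(CPM + 1) deviation of genes up to 1500 bp minus that of genes above 4000 bp (vertical axis) in each library (points, coloured by ganglion). The share falls from 7.46% to 0.161%, and TG libraries 2 to 4 stand above 1 while TG library 1 is at -0.14.

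By position (mm9, from GENCODE annotation of the same assembly), 8 members lay on chromosome 7 (13.6%, against 7.63% of genes above 1 CPM) and 7 on chromosome 19 (11.9% against 3.51%). Apart from the overlapping *Cuedc2* and *Fbxl15*, the closest pairs were *Eef1d* and *Tsta3* on chromosome 15, 15.1 kb apart, and *Tmem219* and *2900092E17Rik* on chromosome 7, 78.6 kb apart. The 5 nearly TG-only genes were on chromosomes 9, 7 and 19: *Cd3g* at chr9:44777655-44788514, minus strand, *1700028J19Rik* at chr7:51485303-51491492, minus strand, *Cyp2f2* at chr7:27904928-27918679, plus strand, *Lat* at chr7:133507346-133513057, minus strand and *Slc22a6* at chr19:8692486-8702789, plus strand. By annotation, 58 members were protein-coding and 1 a lincRNA, *2900053A13Rik*, while *Beta-s* had no entry. Exon sequence was shared with another gene in 17 members (28.8%), against 25.7% of genes above 1 CPM.

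Of 2 promoter motifs searched on both strands, which did not overlap each other in these windows, CCAAT was in 25 of the 43 member windows (58.1%) and in 38.4% of windows of genes above 1 CPM. TATAAA was in 4 (9.30%), those of *Fth1*, *Alas2*, *Use1* and *Prdx1*, and in 7.27% of all. A match describes these letters in this window and not a site in use.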

How the data were processed

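RNA-seq of sorted Pirt/TdTomato neurons was used, 4 libraries per ganglion. Per the labels and the study's methods, the authors made oligo dT SMART-seq2 libraries, sequenced 50 bp single reads, demultiplexed them (with CASAVA by the methods, bcl2fastq by the submitters' processing notes), aligned with TopHat2 to mm9 and counted with HTSeq. The deposited values are raw counts per gene symbol, without normalization by the authors. Versions, annotation and strand setting are not given in the sources used here, so overlapping genes and near-identical copies are uncertain.

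Reads on genes were 4735624 to 13333318 per library, and no 2 libraries of a ganglion agreed within sampling noise. By a chi-square per gene, lower for closer libraries, TG libraries 2 to 4 were the closest to each other, at 29.9 to 33.3. Their pairs with TG library 1 were at 214 to 233, and pairs within the other ganglia at 62.5 or more. The 4 TG libraries may therefore not be equally independent. CPM used reads on genes, without the counter's summary rows. Each pair of ganglia was fitted on its 8 libraries with edgeR 4.0.16 in R 4.3.3 (TMM, filterByExpr, quasi-likelihood test, Benjamini-Hochberg adjustment), and with DESeq2 1.42.0 as an alternative, after a test on simulated data. Exon lengths came from GENCODE on NCBIM37, the assembly of mm9, for 21679 of 22609 symbols, 52 by synonym. Promoters were from RefSeq on GRCm38.p6. Python 3.11.15 with pandas 2.3.3 and matplotlib 3.10.9 was used for tables and figures.

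The members and gene lists were chosen with earlier results of these data known. Values in every library are given for the 20 highest scores, members on a list, and the 3 genes on either side of the last score. Alternatives were DESeq2, RLE size factors, no filter, all 16 libraries in one fit, the replicate number as a block, libraries left out, and for the choice of members other pseudocounts, group means, TMM-scaled CPM and RPKM. The T cell list, the exon length classes, the limit of 2 CPM and the ratios without TG library 1 were chosen after seeing the data. Same-numbered libraries are not described as paired. Lists not named in the report (astrocyte, choroid plexus, ciliated ependymal cell, mural and endothelial cell, macrophage, neutrophil, skeletal muscle, cartilage and bone, head-level transcription factor, trigeminal receptor and immediate-early) held 0 members and no gene with TG above all others.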

Additional observations from a re-analysis of the deposited data

Results flagged for a closer look

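In groups of 4 libraries, a value is listed here when its gap to the nearest of the other 3 exceeds Dixon's critical value for groups of 4, as a share of the group's range. This was checked in 86 groups of the 24 members whose values are given in every library, and chance alone lists about 1 in 20; 10 were listed. In TG, library 1 lay above the other 3 for *Cd3g* (34.4 CPM) and *Slc22a6* (50.8 CPM), and TG library 2 for *Fxyd3* (203 CPM). In NG/JG, library 1 lay above the other 3 for *AW112010* (33.5 CPM) and *1700112E06Rik* (0.696 CPM). In L3–L5 DRG, library 4 lay above the other 3 for *Cyp2f2* (1.06 CPM) and *Slc22a6* (0.845 CPM), and library 1 for *Beta-s* (116 CPM). In T10-L1 DRG, library 1 lay above the other 3 for *Slc22a6* (1.38 CPM) and library 4 for *Tmem219* (55.4 CPM). The cause was not tested.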

How the results depend on the processing

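The 60 members rest on TG library 1 and on the use of the lowest and highest library. Without TG library 1, 11 of the 60 stayed among the 60 highest scores, and leaving out any 1 of the 16 libraries kept 11 to 60. With group means, 10 stayed. Without NG/JG as a whole, 32 stayed, and without L3–L5 DRG 39. A pseudocount of 0.1 or 10 CPM, TMM-scaled CPM, RPKM, and leaving out T10-L1 DRG kept 60, 52, 52, 59 and 45. Of members under 2 CPM in the 12 other libraries, there were 5, 2 with a limit of 1 CPM, and 4 to 8 when 1 library was left out before the choice, with 8 without TG library 4. These were not the same genes: *Cd3g* was the 1 of the 5 among the 4 left without TG library 1. With group means the number was 22.

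The rule chose the members on the contrasts with TG, so nothing is read from the calls in those contrasts. Members called in TG versus NG/JG (2) came to 33 with DESeq2 and 29 with all 16 libraries in one fit. They came to 5 with no filter on low counts, and to 1 to 15 with 1 library left out. The 15 were those without TG library 1. Those in TG versus L3–L5 DRG (0) came to 56, 17, 5, and 0 to 49, with 49 without TG library 1. Those in TG versus T10-L1 DRG (46) came to 18 with all 16 libraries, and 0 to 58 with 1 left out: 0 without TG library 2, 3 or 4 or T10-L1 DRG library 1, 2 or 3, 17 without T10-L1 DRG library 4 and 58 without TG library 1. The genes called over the whole table in these 3 kinds of fit were 0 or 1, 119 and 3583, and without TG library 1 they were 325 in TG versus NG/JG and 2038 in TG versus L3–L5 DRG. In NG/JG versus L3–L5 DRG and versus T10-L1 DRG, DESeq2 called 2 members in each and the fit of all 16 libraries 1 in each, *Beta-s*. Genes called over the whole table in NG/JG versus L3–L5 DRG, NG/JG versus T10-L1 DRG, L3–L5 DRG versus T10-L1 DRG and TG versus these 3 ganglia (NG/JG, L3–L5 DRG, T10-L1 DRG) were 0, 4, 0, 6, 0 and 758, with DESeq2 806, 886, 78, 854, 1612 and 2199, with all 16 libraries 83, 54, 0, 484, 206 and 238, and with no filter 2, 9, 0, 56, 39 and 427. Leaving out 1 library called 0 members in the 3 comparisons without TG. The left-out TG library was highest for 70.4% of genes chosen, and for 67.5% with a pseudocount of 0.1 and 75.4% with TMM-scaled CPM.

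Deviations of same-numbered libraries correlated by 0.1 or less in at least 1 pair of every comparison (lowest r -0.11 to 0.05). Whether such libraries shared more than a number cannot be told from these values. Every library correlated best with its own number in NG/JG versus L3–L5 DRG, and in no other comparison. Adding that number as a replicate block, genes called in NG/JG versus T10-L1 DRG, TG versus NG/JG and TG versus T10-L1 DRG went from 4, 6 and 758 to 0, 1 and 0, and members called under the block were 1 in TG versus NG/JG, *Beta-s*, 0 in TG versus T10-L1 DRG and 0 in the other 4. Causes were not tested. Low counts limit the 5 genes near the floor outside TG.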

Other observations

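The rule takes the lowest TG library, and most genes that were nearly TG-only by their mean did not meet it. Of 21 genes with a mean above 5 CPM in TG and all 12 other libraries under 2 CPM, 4 were members (*Cd3g*, *Cyp2f2*, *Lat* and *Slc22a6*), and 16 had at least 1 TG library under 1 CPM. Among these was the epithelial keratin gene *Krt18*, at 57.8, 12.98, 33.5 and 0 CPM in TG libraries 1 to 4 and at most 1.27 CPM elsewhere. *Epcam*, an adhesion molecule of epithelia, was at 0.762, 17.5, 17.4 and 0 CPM in TG and at most 0.917 CPM elsewhere. These genes were named after their values had been seen.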
